A study of Mus musculus with 6 samples.

Results

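The E2F transcription factors, the RB family of pocket proteins and B-MYB form the switch that opens and closes the gene programmes of S phase and of mitosis. The 10 genes described here, *E2f1*, *E2f2*, *E2f3*, *E2f4*, *E2f7*, *E2f8*, *Rb1*, *Rbl1*, *Rbl2* and *Mybl2*, were chosen by name and found by their Ensembl identifiers among the 32493 genes of a count table of mouse neural stem cells (NSCs). These genes, called the members below, and the gene lists around them were chosen with earlier results of these data known. All 10 members passed the filter on low counts and were tested, among 16710 genes in all. The study asked what the loss of miR-151-5p changes in the transcriptome of cortical NSCs. NSCs were taken from E14.5 embryos of the C57BL/6J background, grown in culture and profiled by RNA-seq of bulk RNA. In the cko group, both alleles of miR-151 were floxed and Emx1-IRES-Cre was present, a driver active in progenitors of the dorsal telencephalon. The ctrl group carried the same floxed alleles without Cre, although its sample labels read wt. The driver limits the model, since a cell that did not come from the Emx1 lineage keeps its miR-151 alleles, and the counts do not give the share of such cells. The miRNA itself was not analysed here.

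Libraries cko 1, 2 and 3 were compared with ctrl 1 and 3. The column named ctrl 2 equalled the mean of ctrl 1 and ctrl 3, rounded up, in 32493 of 32493 genes and was counted in no n. Total counts were 22773559 and 18950862 in ctrl 1 and 3, and 17883796, 23335736 and 21736269 in cko 1, 2 and 3. Levels are given as normalized CPM, counts scaled to a common library total with TMM factors, and 3 counts correspond to 0.129 to 0.168 CPM. The smallest count behind any member was 151, for *E2f1* in ctrl 1, and the largest was 2820, for *Rb1* in the same library. The study names littermates of both genotypes as the source of the NSCs. Which libraries share a litter, a culture or an animal is not given in the sources used here, so p-values measure the spread between these samples. The RNA is that of whole cultures, in which fewer cells of a type and less RNA per cell cannot be told apart.

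E2F proteins bind DNA with a DP partner. E2F1, E2F2 and E2F3 switch on genes for DNA replication, E2F4 acts mainly as a repressor that is held on promoters by pocket proteins, and E2F7 and E2F8 are atypical repressors that need neither DP nor a pocket protein. RB, encoded by *Rb1*, masks the activating E2Fs until cyclin-dependent kinases phosphorylate it, and p107 and p130, encoded by *Rbl1* and *Rbl2*, join E2F4 and the MuvB core in the DREAM complex that silences cell cycle genes in resting cells. B-MYB, encoded by *Mybl2*, binds the same MuvB core in cycling cells and with FOXM1 turns on the genes of G2 phase and mitosis, and in the embryonic cortex this network sets whether a progenitor divides again.

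Of the 10 members, 5 were called higher in cko NSCs and 0 lower by edgeR (quasi-likelihood test, Benjamini-Hochberg adjusted p under 0.05), against 7.86% of all tested genes called higher and 8.57% called lower. The 5 were the atypical repressors *E2f7* and *E2f8*, the activator *E2f2*, the pocket protein gene *Rbl1* and *Mybl2*. The median log2 fold change was 0.59 over the members and -0.0026 over all tested genes. In 6 of the 10 members the 3 cko libraries lay all above or all below the 2 ctrl libraries, as they did in 49.7% of tested genes, so this count by itself was near the background. The sixth of these, after the 5 called, was *Rb1*, whose cko libraries were the lower ones. At an unadjusted p under 0.05 in edgeR the counts were 5 higher and 1 lower, where 5445 of the 16710 tested genes passed in either direction. By DESeq2 they were also 5 and 1, against 1471 genes higher and 1574 lower, and the lower member was *Rb1* in both. Left out in turn, cko 1, cko 2, cko 3, ctrl 1 and ctrl 3 gave 4, 1, 1, 3 and 6 members higher, and in the same order 853, 317, 336, 1681 and 1812 genes of all those tested, against 1314 with all 5 libraries. Without ctrl 1, fewer members were thus called although more genes were. *E2f8* was the only member called higher in each of these 5 fits.

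**Figure D1:**
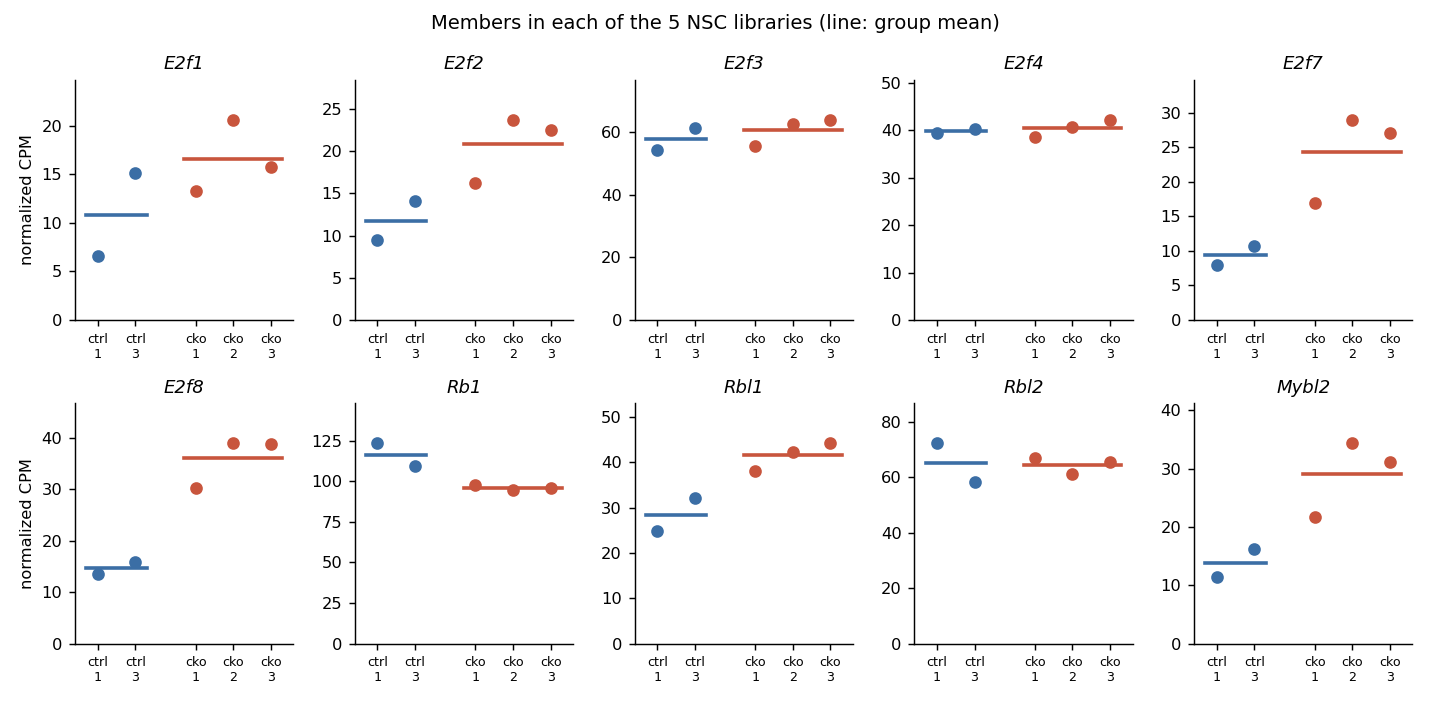
Normalized CPM of the 10 members in each of the 5 libraries (blue, ctrl 1 and 3; red, cko 1, 2 and 3; lines, group means), each on its own axis from 0. For *E2f8* the ctrl libraries lie at 13.5 and 15.8 CPM and the cko libraries between 30.3 and 38.9 CPM, while the *E2f4* libraries of both groups lie between 38.5 and 42.2 CPM.

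The promoters of members are shown because several are known as E2F targets themselves. RefSeq windows of 300 bases, from 250 before to 50 after the start site on GRCm38.p6, matched 8 of the 10 members, and those of *E2f4* and *Rb1* were not analysed here. The start site of the *E2f1* window lies 466 bases downstream of its annotated 5′ end and was left out, and where a gene had several windows the one within 150 bases of its annotated 5′ end was used. In the 7 windows left, both strands were searched for the E2F site TTTGGCGC or TTTCCCGC, its looser form TTTNNCGC, which includes both, the core GCGGGA, which overlaps TTTCCCGC read on the other strand, the CHR element TTTGAA and the CCAAT box. The strict E2F site was found for *E2f2*, *E2f3* and *E2f7*, 3 of 7, against 1.56% of all 32851 windows and 2.75% of those of tested genes. The looser form was found in 4 of 7, with *Rbl1* added, against 5.17% and 7.98%. The core, a search added after the sequences were read, was found in 5 of 7, *Mybl2* and *E2f8* among them, against 20.0% of all windows and 34.3% of those of tested genes. A CHR element was present in 3 of 7 against 17.9% and 11.9%, and a CCAAT box in 4 of 7 against 37.4% and 37.6%. Stretches of 160 bases are given for the 4 called members with E2F letters upstream of the start, for *E2f3*, which holds a strict site and was not called, and for *Rbl2*, which holds no E2F letters. They span positions -130 to 29 around the start site, or -240 to -81 for *E2f7*, and capitals mark the strict, looser and core E2F letters. The stretches lie at chr10:110745199-110745358 (plus strand) for *E2f7*, chr7:48881567-48881726 (minus strand) for *E2f8*, chr2:163054505-163054664 (plus strand) for *Mybl2*, chr2:157204505-157204664 (minus strand) for *Rbl1*, chr13:29986034-29986193 (minus strand) for *E2f3* and chr8:91069927-91070086 (plus strand) for *Rbl2*.
*E2f7*: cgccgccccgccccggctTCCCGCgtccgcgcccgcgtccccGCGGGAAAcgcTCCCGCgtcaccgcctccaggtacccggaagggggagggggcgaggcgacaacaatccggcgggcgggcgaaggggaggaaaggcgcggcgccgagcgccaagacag
*E2f8*: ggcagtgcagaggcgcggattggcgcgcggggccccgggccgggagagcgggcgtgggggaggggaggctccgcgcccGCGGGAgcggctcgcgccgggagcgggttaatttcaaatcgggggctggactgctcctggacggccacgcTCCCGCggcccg
*Mybl2*: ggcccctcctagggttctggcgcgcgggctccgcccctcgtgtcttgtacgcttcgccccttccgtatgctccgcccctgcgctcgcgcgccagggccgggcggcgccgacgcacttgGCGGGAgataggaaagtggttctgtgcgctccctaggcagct
*Rbl1*: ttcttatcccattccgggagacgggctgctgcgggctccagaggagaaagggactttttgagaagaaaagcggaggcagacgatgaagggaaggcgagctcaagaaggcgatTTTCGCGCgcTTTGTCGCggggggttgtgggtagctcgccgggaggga
*E2f3*: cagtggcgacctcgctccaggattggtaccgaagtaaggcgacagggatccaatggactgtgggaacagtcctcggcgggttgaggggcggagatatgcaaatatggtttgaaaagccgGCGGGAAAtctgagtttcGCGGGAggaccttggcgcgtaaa
*Rbl2*: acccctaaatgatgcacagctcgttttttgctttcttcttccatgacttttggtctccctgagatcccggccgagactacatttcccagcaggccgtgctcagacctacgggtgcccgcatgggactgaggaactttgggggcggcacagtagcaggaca
The matches are a description of letters. Called and uncalled members both held them, as *E2f3* shows.

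**Figure D2:**
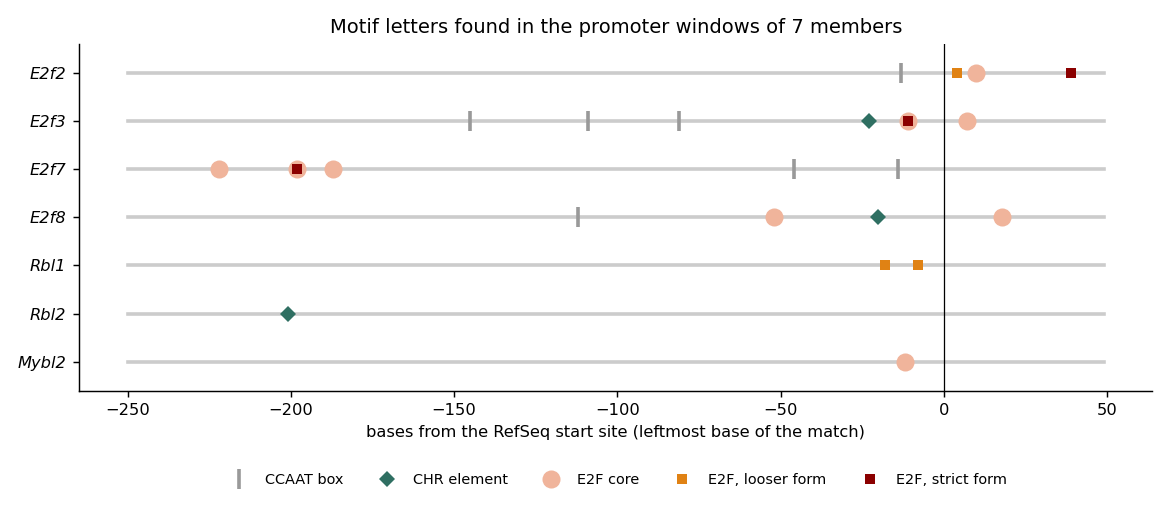
Positions of the letters searched in the windows of 7 members, in bases from the RefSeq start site at 0. Squares mark the strict (dark red) and looser (orange) E2F forms, circles the E2F core, diamonds the CHR element and bars the CCAAT box. A strict site also counts as a looser one. The only match for *Rbl2* is a CHR element 201 bases upstream, at -201, and *E2f7* has its strict site at -198.

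Among the activating E2Fs, *E2f2* was called higher, *E2f3* was nearly level between the groups, and *E2f1* was not called, with its ctrl libraries far apart. *E2f2* (ENSMUSG00000018983, chromosome 4, 136172394 to 136196057) encodes an activator that overlaps in function with E2F1 and E2F3. Its level was 9.48 and 14.0 CPM in ctrl 1 and 3, and 16.2, 23.7 and 22.5 CPM in cko 1, 2 and 3. The lowest cko library was thus above the higher ctrl library, with no overlap between the groups. The mean went from 11.8 ± 3.22 (SD, n = 2) to 20.8 ± 4.02 CPM (SD, n = 3), a 1.78-fold difference. On the log2 scale the fold change was 0.83 (95% CI 0.30 to 1.36) with an adjusted p of 0.0456 in edgeR, close to the threshold. The call was lost without cko 2, cko 3 or ctrl 1 (adjusted p = 0.166, 0.160 and 0.0971 in edgeR), and over the 11 alternatives the adjusted p lay between 9.82e-06 and 0.166.

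*E2f1* (ENSMUSG00000027490, chromosome 2, 154559407 to 154569892), the activator that can drive both S phase entry and apoptosis, was present at 6.60 and 15.1 CPM in ctrl 1 and 3, and at 13.3, 20.6 and 15.8 CPM in cko 1, 2 and 3. Library ctrl 1 stood apart as the lowest, while ctrl 3 lay above cko 1, so the groups overlapped. The log2 difference between ctrl 3 and ctrl 1 was 1.19, wider than for any other member. Cko over ctrl gave a log2 fold change of 0.62 (SE 0.34, 95% CI -0.18 to 1.42) with an adjusted p of 0.251 in edgeR. Against ctrl 1 alone it was 1.34 with an adjusted p of 0.00654, and against ctrl 3 alone it was 0.13 with an adjusted p of 0.726, the lone ctrl library being assumed to vary as the cko libraries did. Over the 11 alternatives the adjusted p of *E2f1* lay between 0.00463 and 0.726, with 2 of them past the threshold. Whether *E2f1* differs between the genotypes cannot be read from a pair of ctrl libraries that far apart.

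*E2f3* (ENSMUSG00000016477, chromosome 13, 29906575 to 29986063), the activator with separate long and short isoforms that the counts do not distinguish, was at 54.3 and 61.5 CPM in ctrl 1 and 3, and at 55.6, 62.8 and 64.0 CPM in cko 1, 2 and 3. All 5 libraries were close together, and cko 1 lay between the ctrl libraries. Its log2 fold change was 0.07 (95% CI -0.16 to 0.30) with an adjusted p of 0.658 in edgeR, so a rise beyond 1.23-fold or a decrease below 0.897-fold lies outside the interval. Without ctrl 1 its sign was negative, at -0.03.

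The largest fold changes among the members belonged to the atypical repressors. *E2f7* (ENSMUSG00000020185, chromosome 10, 110745439 to 110787384), which represses E2F targets late in S phase, was at 7.99 and 10.7 CPM in ctrl 1 and 3, and at 16.9, 29.0 and 27.1 CPM in cko 1, 2 and 3. Each cko library was above each ctrl library, with cko 1 well below cko 2 and 3. The mean went from 9.36 ± 1.93 (SD, n = 2) to 24.3 ± 6.49 CPM (SD, n = 3). On the log2 scale this was 1.38 (SE 0.26, 95% CI 0.78 to 1.99), a 2.61-fold difference, with an adjusted p of 0.0135 in edgeR. Without cko 2 or cko 3 the adjusted p was 0.0641 and 0.0679, and over the 11 alternatives it lay between 4.02e-15 and 0.0679. The low end came from the edgeR fit with no filter on low counts, and the adjusted p by DESeq2 was 3.19e-06.

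*E2f8* (ENSMUSG00000046179, chromosome 7, 48866429 to 48881596), the partner of *E2f7* in holding E2F1 in check, was at 13.5 and 15.8 CPM in ctrl 1 and 3, and at 30.3, 38.9 and 38.9 CPM in cko 1, 2 and 3. The gap between the groups was wider than the range within either of them. The mean went from 14.7 ± 1.63 (SD, n = 2) to 36.0 ± 4.95 CPM (SD, n = 3), and the log2 fold change was 1.30 (SE 0.15, 95% CI 0.95 to 1.65), or 2.46-fold. Its adjusted p of 0.00278 in edgeR was the smallest of the 10 members, at rank 236 of the 16710 tested genes. The call held in 11 of 11 alternatives, with adjusted p between 9.42e-18 and 0.0247. The low end of that range came from the edgeR fit with no filter on low counts, and the adjusted p by DESeq2 was 3.04e-11. The non-coding gene *Gm2788* overlaps 11.2% of the exon bases of *E2f8* on the opposite strand, but held 22 counts over the 5 libraries against 2903 for *E2f8*.

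*E2f4* (ENSMUSG00000014859, chromosome 8, 105297663 to 105305370), the repressor that enters the nucleus with pocket proteins, was at 39.4 and 40.3 CPM in ctrl 1 and 3, and at 38.5, 40.8 and 42.2 CPM in cko 1, 2 and 3. The groups overlapped, and ctrl 1 and 3 were closer to each other than for any other member. Its log2 fold change was 0.02 (95% CI -0.17 to 0.22) with an adjusted p of 0.877 in edgeR, an interval that leaves room for a fold from 0.887 to 1.16.

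**Figure D3:**
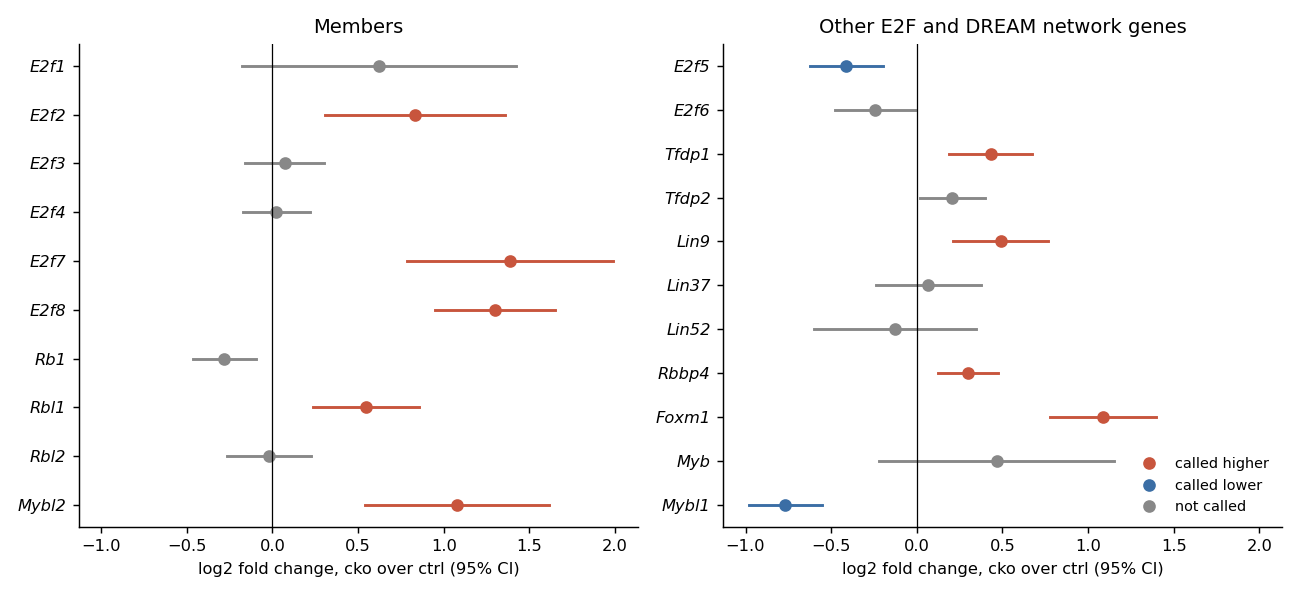
Log2 fold change of cko over ctrl NSCs with its 95% CI for the 10 members (left) and the 11 tested genes of the E2F and DREAM network outside them (right). Red points were called higher, blue points lower and grey points neither at an adjusted p under 0.05 in edgeR. The intervals of *E2f7* and *E2f8* begin at 0.78 and 0.95, and that of *Rb1* ends at -0.10 although it was not called.

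Per length, the ratio of activating to repressing E2Fs overlapped between the genotypes, while the share of *E2f3* among the activators and that of the atypical E2Fs among the repressors did not. On the scale of CPM per kb of exon, the summed level of *E2f1*, *E2f2* and *E2f3* was 14.0 and 19.0 in ctrl 1 and 3, and 17.8, 22.95 and 21.4 in cko 1, 2 and 3. Library ctrl 3 lay above cko 1, so the activating sums overlapped. The summed level of *E2f4*, *E2f7* and *E2f8* was 19.4 and 20.6 CPM per kb in ctrl 1 and 3, and 23.1, 27.0 and 27.4 CPM per kb in cko 1, 2 and 3. The sums of these repressors did not overlap, with the cko libraries on top. The log2 ratio of activating to repressing level was -0.47 and -0.11 in ctrl 1 and 3, and -0.38, -0.23 and -0.35 in cko 1, 2 and 3. The cko ratios lay between those of the ctrl libraries, with means of -0.29 ± 0.25 (SD, n = 2) in ctrl and -0.32 ± 0.08 (SD, n = 3) in cko. With *E2f5* and *E2f6* counted as repressors too, the ratio was -1.80 and -1.47 in ctrl and -1.40, -1.18 and -1.26 in cko, so that the cko libraries then lay above both ctrl libraries by 0.35 on average. The repressing sums of this wider set overlapped, with cko 1 below both ctrl libraries and cko 2 and 3 between them. The direction of the contrast in the ratio and the separation of the repressing sums thus depend on which repressors are counted. No p-value is given for a sum over chosen genes.

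Within the activating class, *E2f3* made up 71.3% and 59.6% of the level per kb in ctrl 1 and 3, and 57.6%, 50.4% and 55.1% in cko 1, 2 and 3. Its share was lower in each cko library than in either ctrl library. Within the repressing class, the atypical *E2f7* and *E2f8* together made up 17.4% and 20.0% in ctrl 1 and 3, and 32.2%, 38.4% and 37.1% in cko 1, 2 and 3. The atypical share did not overlap between the groups, while *E2f4* alone ranged from 15.7 to 17.2 CPM per kb. The log2 ratio of *E2f7* to *E2f1*, per kb, was -1.24 and -2.01 in ctrl 1 and 3, and -1.17, -1.02 and -0.73 in cko 1, 2 and 3, without overlap but with ctrl 1 close to cko 1. For *E2f8* to *E2f1* the ratio was 0.25 and -0.72 in ctrl, and 0.40, 0.13 and 0.52 in cko, with ctrl 1 inside the cko range. The ratio of *E2f8* to *E2f7* overlapped between the groups, at 1.49 and 1.29 in ctrl and 1.57, 1.153 and 1.25 in cko. In both genotypes *E2f8* was therefore the more abundant atypical repressor per length of annotated exon.

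**Figure D4:**
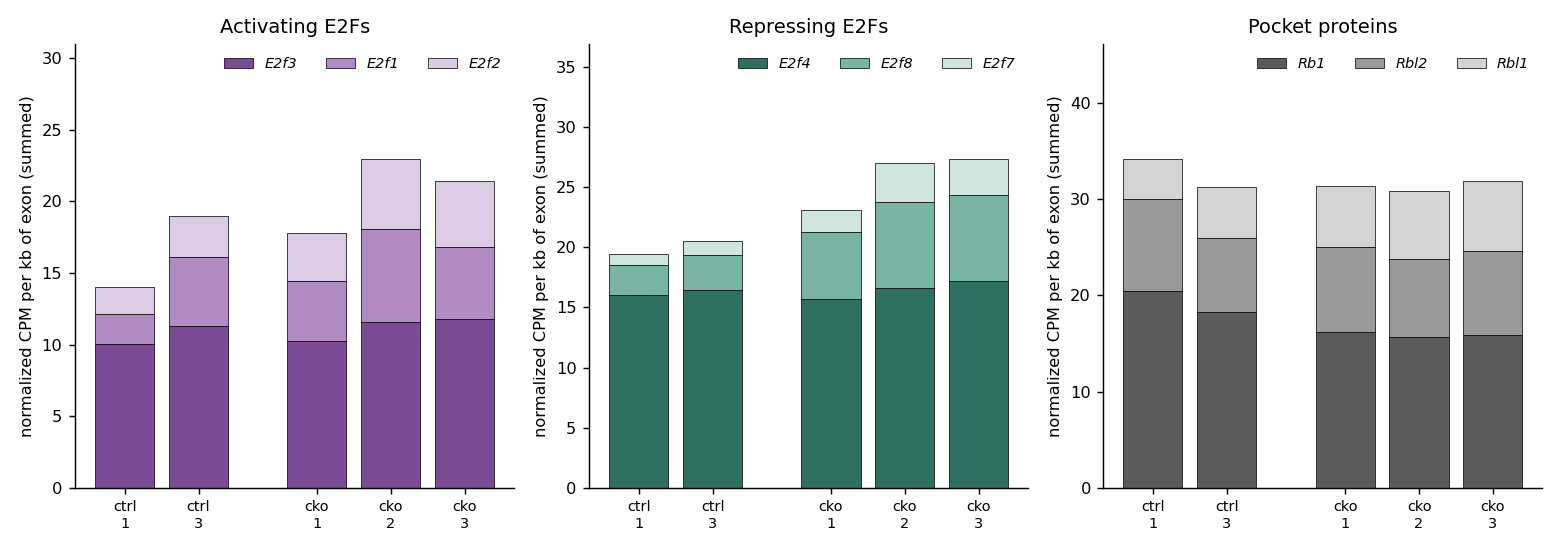
Stacked levels in normalized CPM per kb of exon in each library for the activating E2Fs, the repressing E2Fs and the pocket proteins, with axes from 0. The repressing sums of *E2f4*, *E2f7* and *E2f8* are 19.4 and 20.6 in ctrl and 23.1 to 27.4 in cko. The increase lies in the *E2f8* and *E2f7* segments. With *E2f5* and *E2f6* counted as repressors too, the repressing sums of the groups overlap. The *Rb1* segment is lower in each cko library.

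The pocket proteins were split, with *Rbl1* higher in cko NSCs, *Rbl2* close to level and *Rb1* lower but just outside the threshold. *Rbl1* (ENSMUSG00000027641, chromosome 2, 157145893 to 157204534) encodes p107, the pocket protein that accumulates in cycling cells. It was at 24.9 and 32.1 CPM in ctrl 1 and 3, and at 38.0, 42.4 and 44.2 CPM in cko 1, 2 and 3. The groups did not overlap, although ctrl 3 was closer to cko 1 than to ctrl 1. The log2 fold change was 0.55 (SE 0.13, 95% CI 0.24 to 0.85), or 1.46-fold, with an adjusted p of 0.0312 in edgeR. The call was lost without cko 1, cko 2, cko 3 or ctrl 1 (adjusted p = 0.0597, 0.128, 0.135 and 0.0613 in edgeR), and over the 11 alternatives the adjusted p lay between 0.000219 and 0.135.

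*Rb1* (ENSMUSG00000022105, chromosome 14, 73183673 to 73325822), the retinoblastoma gene, had the highest CPM of the members, with 123 and 110 CPM in ctrl 1 and 3, and 97.5, 94.4 and 95.7 CPM in cko 1, 2 and 3. The cko libraries were nearly equal and all below both ctrl libraries. The mean was 116 ± 9.61 CPM (SD, n = 2) in ctrl and 95.9 ± 1.52 CPM (SD, n = 3) in cko. The log2 fold change was -0.28 (SE 0.08, 95% CI -0.46 to -0.10), a ratio of 0.824, with an adjusted p of 0.0501 in edgeR. It was past the threshold in 6 of the 11 alternatives and negative in all 11. One of the 6 is the fit on all 6 columns, which counts the derived ctrl 2 column as a library and gave the smallest adjusted p, 0.00832, while without that fit the adjusted p lay between 0.0125 and 0.177. *Rcbtb2* and *Lpar6* overlap 8.11% and 6.78% of the exon bases of *Rb1* on the opposite strand, and held 6270 and 1625 counts over the 5 libraries against 10902 for *Rb1*. The use of strand in counting was not stated, so a share of its counts is uncertain.

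*Rbl2* (ENSMUSG00000031666, chromosome 8, 91070057 to 91123844) encodes p130, the pocket protein that prevails in resting cells. It was at 72.2 and 58.4 CPM in ctrl 1 and 3, and at 66.8, 61.2 and 65.4 CPM in cko 1, 2 and 3. The cko libraries all lay between the ctrl libraries. Cko over ctrl gave a log2 fold change of -0.02 (95% CI -0.27 to 0.23) with an adjusted p of 0.921 in edgeR, and its sign changed in 3 of the 11 alternatives. *Aktip*, on the opposite strand, overlaps 9.17% of its exon bases and held 6137 counts against 6789 for *Rbl2*, so a share of its counts is uncertain as well. *Gm45464*, on that strand too, overlaps 11.8% but held 56 counts. Of the summed pocket protein level per kb, *Rb1* made up 59.9% and 58.2% in ctrl and 51.6%, 50.9% and 49.8% in cko, and *Rbl1* 12.1% and 17.1% in ctrl and 20.2%, 22.9% and 23.1% in cko. Both shares were without overlap, while that of *Rbl2* ranged from 24.7% to 28.1% with the groups mixed.

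*Mybl2* (ENSMUSG00000017861, chromosome 2, 163054687 to 163084688), the gene for B-MYB and itself a known E2F target, was at 11.49 and 16.2 CPM in ctrl 1 and 3, and at 21.7, 34.3 and 31.2 CPM in cko 1, 2 and 3. All cko libraries were above both ctrl libraries, and cko 1 was again the lowest of the cko libraries. The mean went from 13.8 ± 3.31 (SD, n = 2) to 29.1 ± 6.59 CPM (SD, n = 3). The log2 fold change was 1.08 (SE 0.23, 95% CI 0.54 to 1.62), or 2.11-fold, with an adjusted p of 0.0215 in edgeR. Without cko 2 or cko 3 the adjusted p was 0.0910 and 0.0940, and over the 11 alternatives it lay between 3.54e-11 and 0.0940. The low end came from the edgeR fit with no filter on low counts, and the adjusted p by DESeq2 was 0.000122. Its log2 fold change was not tested against those of *E2f7* and *E2f8*.

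Ordered by mean level per kb of exon in ctrl NSCs, the members ran from *Rb1* (19.3 CPM per kb), *E2f4* (16.3), *E2f3* (10.7), *Rbl2* (8.64) and *Rbl1* (4.75) to *E2f1* (3.44), *Mybl2* (2.99), *E2f8* (2.70), *E2f2* (2.41) and *E2f7* (1.04). From *Rbl1* down to *E2f2*, neighbours in this order overlapped between libraries, and the other neighbours did not. In cko NSCs the order by mean level per kb was *E2f4* (16.5 CPM per kb), *Rb1* (15.9), *E2f3* (11.2), *Rbl2* (8.53), *Rbl1* (6.93), *E2f8* (6.62), *Mybl2* (6.27), *E2f1* (5.25), *E2f2* (4.26) and *E2f7* (2.70). There *E2f4* and *Rb1* overlapped, as did neighbours from *Rbl1* down to *E2f2*. The order depends on the length used. Per kb of the longest transcript, *E2f8* moved from place 8 to place 6 in ctrl and from place 6 to place 5 in cko, and *Rbl2* lay above *E2f3* in both genotypes. In cko, *Rb1* then lay above *E2f4* and *E2f7* above *E2f2*. The level per kb of *E2f7* rests on 9009 exon bases over all its annotated transcripts, against 5473 in its longest transcript, and would be higher on the latter length.

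The genes most like a member over the 5 libraries were found by the root mean square difference of centred log2 CPM, among 11953 genes with at least 50 counts in each library. Nearest to *Mybl2* were *Prr11*, *Uhrf1* and *Rad51ap1*, with differences of 0.03, 0.04 and 0.05, against a median of 0.58 over all genes compared. Their log2 fold changes were 1.03, 1.08 and 1.10 with adjusted p of 0.0180, 0.0248 and 0.0281 in edgeR, and like *Mybl2* they lost the call without cko 2 or cko 3. Calls that these genes share with a member follow from their choice over the same libraries. Nearest to *E2f1* were *Neurl1a*, *Mthfd1l* and *Cdt1*, with differences of 0.06, 0.12 and 0.12, against a median of 0.54. Their log2 fold changes were 0.60, 0.43 and 0.80, and none was called. *Rbl2* was closest to *Rbm5*, *Tmem41a* and *Zmym5*, with differences of 0.01, 0.02 and 0.02 against a median of 0.19, and log2 fold changes from -0.03 to -0.02.

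The partners of the members are given next. Of 11 tested genes of the E2F and DREAM network outside the members, 4 were higher and 2 lower in cko NSCs, or 36.4% and 18.2% against 7.86% and 8.57% of all tested genes, with a median log2 fold change of 0.21, and *Lin54* was not analysed here. *Foxm1*, which joins B-MYB and MuvB at mitotic genes, was at 60.5 and 74.8 CPM in ctrl 1 and 3, and at 125, 159 and 145 CPM in cko 1, 2 and 3. Its log2 fold change was 1.08 (SE 0.13) with an adjusted p of 0.00329 in edgeR. *Mybl1*, the gene for A-MYB, went the other way, with 66.0 and 71.1 CPM in ctrl and 39.0, 38.0 and 43.7 CPM in cko. Its log2 fold change was -0.77 (SE 0.09) with an adjusted p of 0.00288 in edgeR, so that the MYB genes *Mybl2* and *Mybl1* were called in opposite directions. *Myb*, at 2.19 to 4.80 CPM, was not called (log2 fold change 0.47, 95% CI -0.22 to 1.15). The groups of *Foxm1* and of *Mybl1* did not overlap, and both calls held in all 11 alternatives.

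*E2f5*, which like *E2f4* works with pocket proteins, was at 32.5 and 32.5 CPM in ctrl 1 and 3, and at 24.4, 25.2 and 23.7 CPM in cko 1, 2 and 3, and it fell by 0.41 on the log2 scale (adjusted p = 0.0241 in edgeR). *E2f6*, a repressor that works with Polycomb proteins, stood at -0.24 (95% CI -0.48 to -0.01) and was not called (adjusted p = 0.140 in edgeR). The DP gene *Tfdp1* was higher by 0.43 on the log2 scale (adjusted p = 0.0309 in edgeR), and *Tfdp2* was at 0.21 (adjusted p = 0.127 in edgeR). Of the MuvB core, *Lin9* and *Rbbp4* were higher, at 0.49 and 0.30 (adjusted p = 0.0329 and 0.0346 in edgeR), while *Lin37* and *Lin52* were at 0.07 and -0.13 and not called. The calls of *E2f5*, *Tfdp1*, *Lin9* and *Rbbp4* did not hold without cko 2 or without cko 3 (adjusted p from 0.0903 to 0.181 in edgeR), and those of *Tfdp1*, *Lin9* and *Rbbp4* were also lost without ctrl 1. Without cko 1 those of *E2f5*, *Tfdp1* and *Rbbp4* were lost (adjusted p = 0.0597, 0.0571 and 0.0805 in edgeR). With the replicate block those of *E2f5*, *Lin9* and *Rbbp4* were lost (adjusted p = 0.0792, 0.122 and 0.176 in edgeR). The replicate block fits a term for the replicate number. As cko 2 has no ctrl library of its number, it adds nothing to the contrast in that fit. Without ctrl 1, *E2f6* was called lower (adjusted p = 0.0168), and over all 11 alternatives its adjusted p lay between 0.0168 and 0.492.

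Upstream of the pocket proteins, 4 of 18 tested RB kinases and their inhibitors were higher and 2 lower, with a median log2 fold change of 0.16. These are 22.2% and 11.1%, against 7.86% and 8.57% of all tested genes, so the share called lower was near the background. With the replicate block, which takes cko 2 out of the contrast, 5 of the list were higher and 3 lower. Of all tested genes, 918 and 1065 were. The calls gained were *Cdkn2d*, higher, and *Cdkn1a*, lower (adjusted p = 0.0340 and 0.0245 with the block, 0.0562 and 0.121 without it, in edgeR). *Cdk6*, a kinase that phosphorylates RB with D-type cyclins, was at 32.6 and 27.4 CPM in ctrl 1 and 3, and at 70.3, 73.6 and 81.9 CPM in cko 1, 2 and 3. Its log2 fold change was 1.33 (SE 0.11) with an adjusted p of 0.00109 in edgeR. Among the inhibitors, *Cdkn2b* (p15) and *Cdkn1c* (p57) were lower, with log2 fold changes of -1.33 and -0.87 and an adjusted p of 0.00229 each in edgeR, and *Cdkn2c* (p18) was higher, at 0.91 with an adjusted p of 0.00241. *Ccnd1* and *Cdkn2a* had the largest p-values of the list, with log2 fold changes of -0.12 (95% CI -0.82 to 0.59) and -0.15 (95% CI -1.19 to 0.89) and wide gaps between ctrl 1 and ctrl 3. *Ccnd1* was at 304 and 658 CPM in those libraries, and without ctrl 1 it was called lower (log2 fold change -0.58, adjusted p = 0.0418), while without ctrl 3 it lay on the other side and was not called (0.55, adjusted p = 0.0579). Over the 11 alternatives its adjusted p ranged from 0.0418 to 0.974. Without ctrl 1, 5 genes of the list were called lower in place of 2, while the count over all tested genes went from 1432 to 2062.

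Downstream, of 30 tested G1/S target genes of E2F, 22 were higher in cko NSCs and 0 lower, or 73.3% against 7.86% of all tested genes called higher, with a median log2 fold change of 0.83 and a positive sign in all 30. *Pola1*, *Rrm1* and *Rfc4*, which encode parts of DNA polymerase alpha, ribonucleotide reductase and the clamp loader, had the smallest p-values, with log2 fold changes of 0.90, 0.97 and 1.00 (adjusted p = 0.00415, 0.00529 and 0.00615 in edgeR). *Fen1* and *Orc1* had the largest, with 0.71 (SE 0.34) and 0.34 (SE 0.22), and were not called. The number called higher was 6 without cko 2 and 6 without cko 3, fits in which 317 and 336 of all tested genes were called higher. No gene of the list was lower at an unadjusted p under 0.05 in edgeR or by DESeq2, both with a count of 0.

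All 30 tested G2/M target genes of B-MYB, FOXM1 and MuvB were called higher in cko NSCs, against 7.86% of all tested genes. Their median log2 fold change was 1.21. In all 30 the cko libraries lay above both ctrl libraries, where 49.7% of all tested genes were without overlap in either direction. *Knstrn*, *Ccnb1* and *Cenpf*, which act at the spindle, as a subunit of the mitotic kinase and at the kinetochore, had the smallest p-values, with log2 fold changes of 1.37, 1.33 and 1.16 (adjusted p = 0.00107, 0.00145 and 0.00148 in edgeR). At the other end of the list, *Cdc25b* and *Aurkb* had log2 fold changes of 0.83 and 1.08 (adjusted p = 0.0103 and 0.0130 in edgeR), and these lost their calls without cko 2 or cko 3, which left 28 of 30. The summed level of this list was 1729 and 1864 CPM in ctrl 1 and 3, and 3496, 4547 and 4380 CPM in cko 1, 2 and 3. Library cko 1 was the lowest of the cko libraries in this sum, as it was for *Mybl2*, *E2f2*, *E2f7* and *E2f8*.

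**Figure D5:**
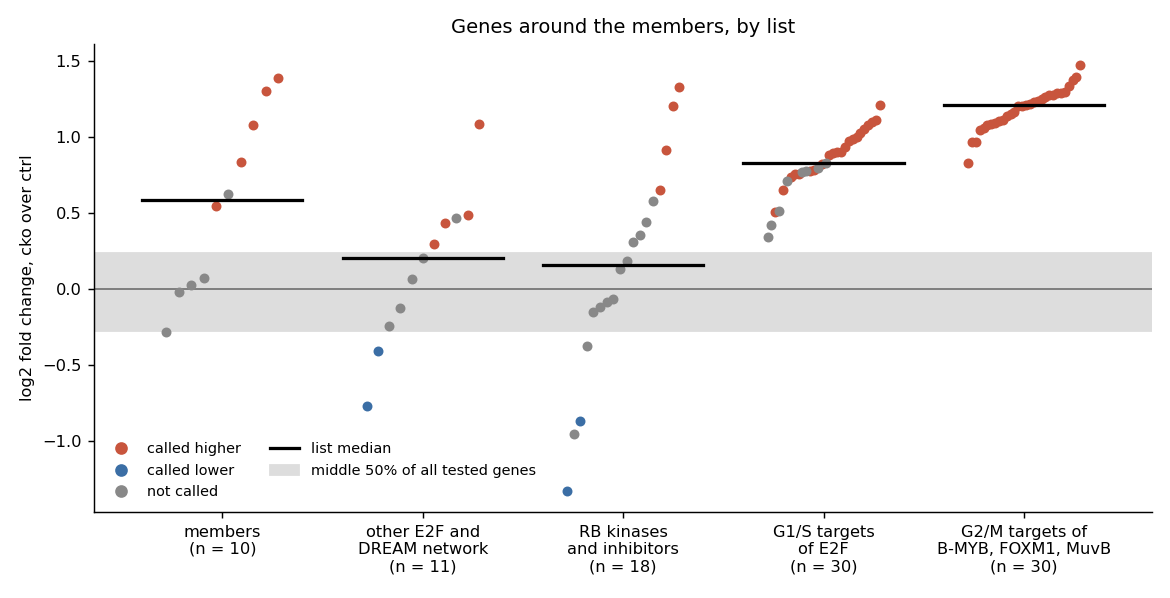
Log2 fold changes of cko over ctrl NSCs for the members and the 4 lists of genes around them, each point a tested gene (red, called higher; blue, called lower; grey, not called; adjusted p under 0.05 in edgeR). Black lines are list medians, 0.59, 0.21, 0.16, 0.83 and 1.21 from left to right, the grey line is the median of all tested genes and the grey band the middle 50% of them.

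The label NSC was checked against markers. The summed CPM of 8 NSC markers was 7916 and 6971 in ctrl 1 and 3, and 8849, 8259 and 8147 in cko 1, 2 and 3, led by *Vim*, with 3 of 8 higher and 1 lower. Neuronal markers (7 of 8 tested, 1 higher and 1 lower, led by *Map2*) summed to 1307 and 1238 CPM in ctrl and 1341, 1393 and 1402 CPM in cko. With the replicate block *Gap43* was also called higher (adjusted p = 0.0147 with the block, 0.104 without it, in edgeR). Markers of the oligodendrocyte lineage (8 tested, 2 higher and 4 lower, led by *Olig1*) summed to 2755 and 3377 CPM in ctrl and 3224, 3508 and 3369 CPM in cko. *Olig1* and *Olig2* were the higher ones, with log2 fold changes of 0.63 and 0.38 (adjusted p = 0.0108 and 0.0444 in edgeR). With the replicate block the call of *Olig2* was lost (adjusted p = 0.126 in edgeR). That of *Pdgfra*, higher, was gained (adjusted p = 0.0224 with the block, 0.0942 without it, in edgeR). *Mbp*, a gene of mature oligodendrocytes named after its values were seen, was among the lower ones, at 139 and 238 CPM in ctrl and 10.5, 9.30 and 11.8 CPM in cko. Astrocyte markers (6 tested, 0 higher and 3 lower, led by *Slc1a2*) summed to 2607 and 1691 CPM in ctrl and 1355, 772 and 806 CPM in cko. With the replicate block *Gfap* and *Aqp4* were called lower too, which made 5 of 6 (adjusted p = 0.00735 and 0.00166 with the block, 0.126 and 0.108 without it, in edgeR). The groups overlapped in both genes. *Gfap* was at 1008 and 178 CPM in ctrl 1 and 3, and at 298, 86.7 and 122 CPM in cko 1, 2 and 3. The astrocyte sum was lower in each cko library, where *E2f7*, *E2f8* and *Mybl2* were higher, and the part of cell composition in the members' differences was not tested. The microglial genes *Cx3cr1* and *Tmem119* and the endothelial *Cdh5* were at 0 counts in all 5 libraries, and the microglial, endothelial and pericyte lists summed to at most 6.71 CPM in any library, with none of their tested genes called by edgeR or DESeq2 and 1 of them, *Col1a1*, lower at an unadjusted p under 0.05. Ventral telencephalic markers (3 of 4 tested, led by *Gsx2*, with *Nkx2-1* below the filter) summed to 4.64 to 7.52 CPM, with 0 called by edgeR or DESeq2 and 1, *Dlx2*, lower at an unadjusted p under 0.05. *Xist* and Y-linked genes were present together in all 5 libraries, and of these 5 genes the 4 Y-linked ones were higher and *Xist* was lower in cko, with *Xist* at 2889 and 2557 CPM in ctrl and 787, 849 and 894 CPM in cko. Sex-linked transcripts thus moved with the genotype too. Their part in the members' differences was not tested and cannot be told apart from that of the genotype in these libraries.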

How the data were processed

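RNA-seq was run on E14.5 NSCs of both genotypes after culture, and the 10 members were looked up by Ensembl identifier. The authors used FastQC v0.11.5 for quality checks, NGSQC v2.3.3 for filtering and HISAT2 for alignment to mm10, and deposited raw counts per gene, without normalization. The submitters' processing notes name GRCm39 as the build, which conflicts with mm10, and no coordinate here depends on the files. The counting tool, the annotation and the use of strand are not given in the sources used here. RNA isolation was by TRIzol in the methods and by a column kit per the labels. Of the deposited columns, the other kind of value is ctrl 2, which holds a rounded mean and was used in a 6-column alternative alone.

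GENCODE M21 on GRCm38 gave names, positions and exon lengths for 31829 of 32493 identifiers. Counts of the 5 libraries were filtered by filterByExpr, scaled by TMM and tested by edgeR 4.0.16 (quasi-likelihood, R 4.3.3), with Benjamini-Hochberg adjustment over 16710 genes. Levels between genes were compared as CPM per kb of the union of exons. Log2 fold changes have 95% intervals from the fit. As alternatives, DESeq2 1.42.0 was run, size factors were set by median-of-ratios, the filter was dropped or raised to 10 counts in every library, and each library was left out. Others were the replicate block, all 6 columns, the study's cutoffs (log2 fold change beyond 0.9, unadjusted p under 0.01), set there on DESeq2 and here applied to the edgeR fit, longest transcripts as lengths and a wider set of repressors. The steps were tested on simulated data. The floor of 3 counts covers counting error only.

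The members and lists were chosen with earlier results of these data known. Named were the members, the network genes around them, and the 3 smallest and 2 largest p-values of each other list. *Cdkn2c* was named as the other inhibitor called, and *Cdk4* and *Ccna2* as further genes of that list called higher. *Cdkn1a* and *Cdkn2d* were named for calls gained with the replicate block. These were added after their values were seen. The 3 nearest genes to *E2f1*, *Mybl2* and *Rbl2* on log2(CPM + 0.5) were named too. Marker lists covered NSCs, neurons, the oligodendrocyte lineage, astrocytes, microglia, endothelium, pericytes and fibroblasts, dorsal and ventral telencephalon and sex-linked genes. Some listed marker results are not reported here. Figures were drawn with matplotlib 3.10.9.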

Additional observations from a re-analysis of the deposited data

How the results depend on the processing

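Over the alternatives of the fit, the log2 fold changes of the members kept their sign except for *E2f3*, *E2f4* and *Rbl2*, which were close to 0 throughout. The 5 members called higher stayed 5 by DESeq2, by median-of-ratios size factors and with a filter of at least 10 counts. For *E2f1*, *E2f2*, *E2f7*, *E2f8*, *Rbl1* and *Mybl2*, the smallest adjusted p of the alternatives came from the edgeR fit with no filter on low counts. With the study's cutoffs (log2 fold change beyond 0.9, unadjusted p under 0.01), which the authors set on DESeq2, applied to the edgeR fit of 5 libraries, 3 members were higher and 0 lower, with 399 genes higher and 696 lower in all, 1 network gene higher and 0 lower, 1 RB kinase or inhibitor lower and 11 G1/S target genes higher. *Rb1* was the 1 member called lower by DESeq2, with all 6 columns, with at least 10 counts in every library, with median-of-ratios size factors and with no filter. With all 6 columns, the derived ctrl 2 counted as a library, 2865 genes were higher and 2794 lower, and 7 RB kinases or inhibitors higher. With no filter 2237 genes were lower, and 4 RB kinases or inhibitors. With libraries left out in turn, the counts ranged from 317 to 1812 genes higher, 416 to 2062 lower, 1 to 6 members higher, 0 to 1 members lower, 1 to 4 network genes higher, 1 to 3 network genes lower, 2 to 5 RB kinases or inhibitors lower and 6 to 28 G1/S target genes higher. The log2 ratio of activating to repressing level in cko minus ctrl, -0.03, was 0.35 with *E2f5* and *E2f6* among the repressors, and from -0.21 to 0.15 with libraries left out. More genes were called without either ctrl library and fewer without any cko library than with all 5, and the cause of these shifts was not tested.

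Whether libraries of the same number in both genotypes share a litter is unknown. Their labels share that number only, with correlations of their deviations across genes of 0.14 for replicate 1 and 0.05 for replicate 3. The unlike numbers ctrl 3 and cko 2 gave 0.12, and with 2 ctrl libraries the values for ctrl 1 and ctrl 3 mirror each other. In the replicate block, cko 2 has no ctrl library of its number, so the contrast rests on replicates 1 and 3. With this block, 918 genes were higher and 1065 lower, 5 members higher and 0 lower, 2 network genes higher and 1 lower. Of the RB kinases and inhibitors, 5 were then higher and 3 lower. With 2 ctrl libraries, *E2f1* had the widest interval of the members.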
